A study of Mus musculus with 18 samples.

Results

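The 10 genes described here are members of the early growth response (EGR) and AP-1 families and 2 further immediate-early genes, Ier2 and Klf6. They were taken by symbol from the deposited count table of 56748 gene IDs, as a list chosen with earlier results of these data known. The EGR members are Egr1, Egr2 and Egr3, and the AP-1 members are Fos, Fosb, Jun, Junb and Jund. All 10 were found, and all 10 were among the 14985 genes with enough counts to be tested.

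The cells were RN2, mouse acute myeloid leukemia cells that carry the MLL-AF9 fusion and NrasG12D, with a genotype otherwise given as WT. They carried a lentiviral construct and were sorted on day 5 after transduction, and polyA RNA was sequenced from 6 groups of 3 libraries. seBE is a base editor that rapamycin controls, and intact BE is an editor with an active evolved APOBEC1 deaminase; each was given 1 nM rapamycin or vehicle for 24 h before the sort. The catalytic mutant is the intact editor with an inactive deaminase, and nCas9 is the Cas9 nickase alone; the sample labels call both vehicle-treated, while the treatment protocol names only intact BE and seBE. All groups share the RN2 background and the lentiviral transduction. Rapamycin, through the protein FKBP12, is also known to inhibit the growth-regulating kinase complex mTORC1. The data hold no measure of mTORC1 activity with any construct. The labels call the libraries biological replicates without saying whether cultures or transductions were separate, so a p-value here covers only the spread seen among these libraries.

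Immediate-early genes are transcribed within minutes of a growth factor, cytokine or stress signal, without need of new protein synthesis. The RAS-ERK cascade switches many of them on through serum response factor (SRF) and its ternary complex factor partners, and CREB and ATF proteins act at cyclic AMP response elements in several of their promoters. EGR proteins are zinc-finger transcription factors that bind GC-rich sites, and AP-1 is a set of dimers of JUN and FOS family proteins. In myeloid cells both families are known for their part in monocyte and macrophage differentiation.

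Library totals ran between 13835979 and 23284932 counts, and the rapamycin libraries (20787927 to 22490858 counts in seBE and 20044158 to 23284932 in intact BE) were deeper than most of the others. The 7 markers of the RN2 line summed to 2275 to 2583 CPM by group (CPM are counts scaled by edgeR to a common library size). Markers of lymphocytes, erythroid cells and stroma summed to less than 1 CPM in every group, with Cd3e, Hbb-bs, Col1a2 and Pdgfra among those at 0 in all 18 libraries. Among the other lists, megakaryocyte markers summed to 7.80 to 13.97 CPM and mature neutrophil markers, mostly S100a8, to 102 to 275 CPM.

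Per kilobase of exon, and averaged over the 18 libraries, the levels spanned a wide range. Ier2 was highest at 61.5 CPM per kb, and Junb, Jund and Egr1 followed at 19.6, 18.3 and 11.7 CPM per kb. Fos and Klf6 lay at 3.46 and 3.01 CPM per kb, and Jun and Egr3 at 1.46 and 1.05 CPM per kb. Egr2 and Fosb were the lowest at 0.496 and 0.135 CPM per kb, on 8 to 87 and 2 to 29 reads per library. A difference in Egr2 or Fosb is therefore measured with much less precision than one in Egr1, which had 538 to 2755 reads per library.

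A difference anywhere among the 6 groups was called for 6 of the 10 genes, against 31.4% of all genes tested (edgeR's quasi-likelihood test, adjusted p under 0.05 after Benjamini-Hochberg correction over all genes tested). These 6 were Egr1 (adjusted p = 1.40e-08), Egr3 (4.45e-07), Klf6 (0.00138), Ier2 (0.00432), Egr2 (0.00909) and Jun (0.0279). The adjusted p was 0.136 for Junb, 0.426 for Jund, 0.732 for Fos and 0.910 for Fosb. The groups that stood apart differed between these genes, as the values in each library show.

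**Figure D1:**
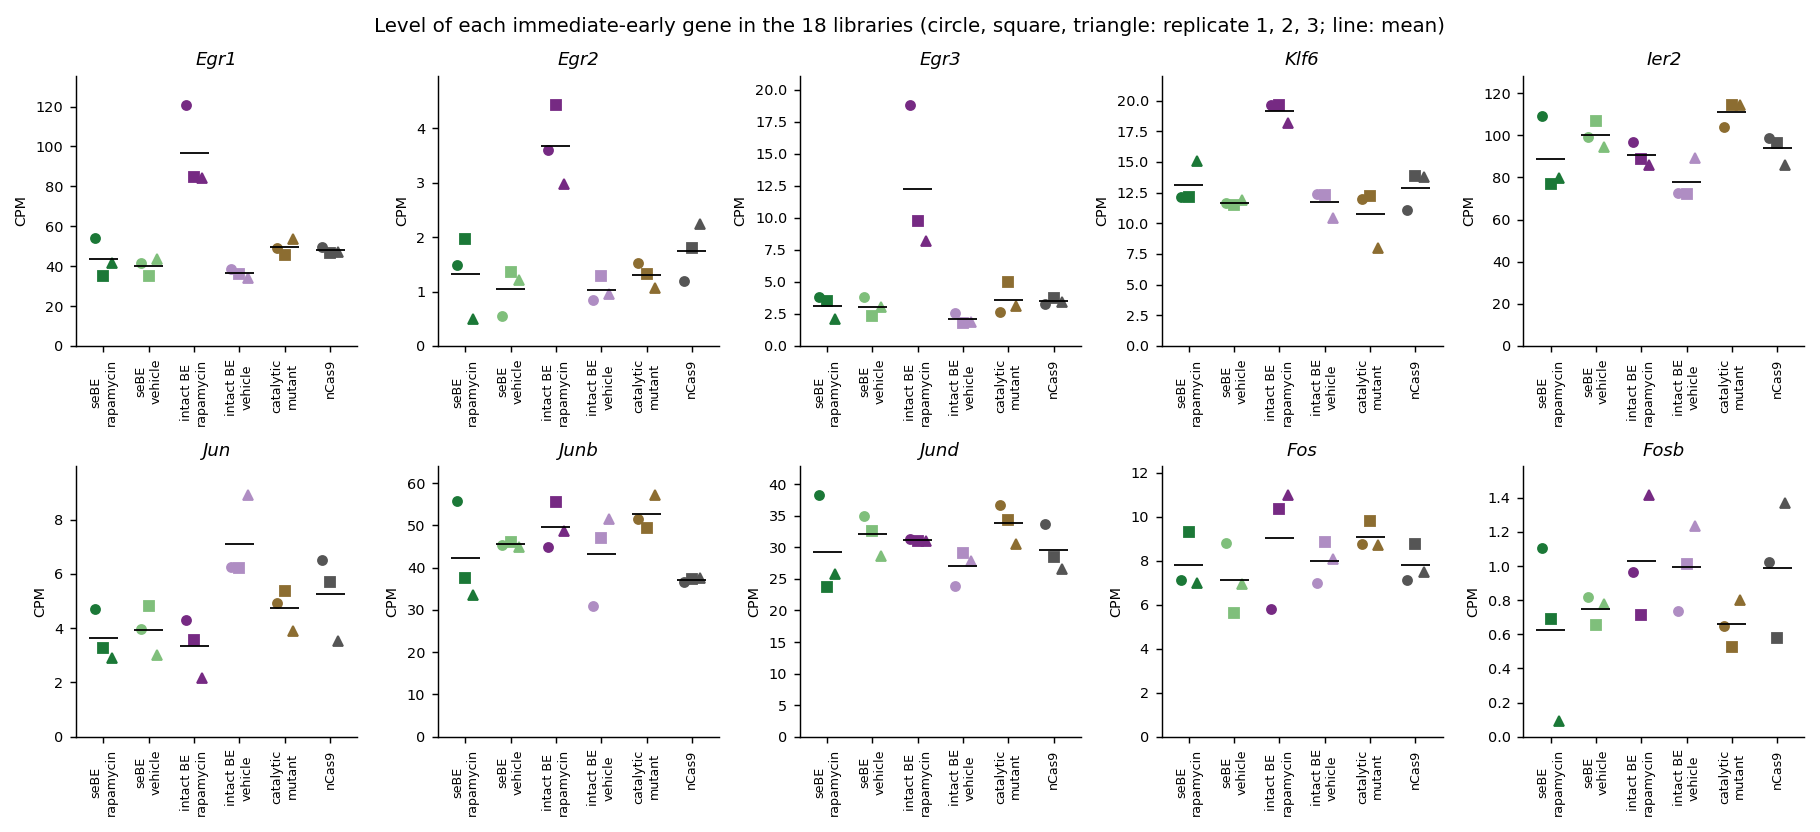
Level of each of the 10 genes, in CPM, in the 18 libraries of the 6 groups; symbols are replicates 1, 2 and 3 and the line is the group mean of 3. The 3 intact BE libraries under rapamycin stand above all others for Egr1, Egr2, Egr3 and Klf6. Fos and Fosb overlap between all groups. Some groups do not overlap for Junb (such as the catalytic mutant and nCas9) and Jund (such as intact BE under rapamycin and vehicle).

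The promoters of 4 members are shown because EGR and AP-1 genes, both textbook targets of SRF, CREB and ATF proteins, differed in how they moved under rapamycin. RefSeq promoter sequences on build GRCm38.p6, an older build than the authors' GRCm39, were found for 7 of the 10 genes, not for Egr1, Egr3 and Ier2, so Egr2 alone stands for the EGR genes here. The 250 bases before each start were searched on both strands. The motifs were the SRF site (the CArG box by name), TGACGTCA and its part TGACGT for CREB and ATF, TGACATCA for JUN with ATF, TGANTCA for AP-1, and GCGNGGGCG for EGR. Of the 4 shown, Egr2 and Klf6 rose, Jun fell and Fos was not called in intact BE under rapamycin, and capitals mark the motif matches. Egr2 lies at chr10:67537619-67537868 (plus strand), Klf6 at chr13:5861239-5861488 (plus), Jun at chr4:95052223-95052472 (minus) and Fos at chr12:85473640-85473889 (plus), each written 5′ to 3′ on the gene's strand.
Egr2: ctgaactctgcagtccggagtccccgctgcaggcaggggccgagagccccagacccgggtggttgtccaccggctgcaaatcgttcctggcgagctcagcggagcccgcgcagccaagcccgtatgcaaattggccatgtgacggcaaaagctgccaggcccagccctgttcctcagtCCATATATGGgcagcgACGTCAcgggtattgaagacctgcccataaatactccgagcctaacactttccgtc
Klf6: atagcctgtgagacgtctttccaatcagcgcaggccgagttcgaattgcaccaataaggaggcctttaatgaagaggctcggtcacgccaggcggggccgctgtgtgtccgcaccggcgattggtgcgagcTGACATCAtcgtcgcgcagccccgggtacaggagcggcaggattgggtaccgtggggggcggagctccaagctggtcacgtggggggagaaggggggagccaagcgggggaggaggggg
Jun: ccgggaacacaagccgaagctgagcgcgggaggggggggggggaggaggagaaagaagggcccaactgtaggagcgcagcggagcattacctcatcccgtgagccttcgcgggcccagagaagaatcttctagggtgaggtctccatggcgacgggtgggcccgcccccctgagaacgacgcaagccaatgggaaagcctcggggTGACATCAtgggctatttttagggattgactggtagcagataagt
Fos: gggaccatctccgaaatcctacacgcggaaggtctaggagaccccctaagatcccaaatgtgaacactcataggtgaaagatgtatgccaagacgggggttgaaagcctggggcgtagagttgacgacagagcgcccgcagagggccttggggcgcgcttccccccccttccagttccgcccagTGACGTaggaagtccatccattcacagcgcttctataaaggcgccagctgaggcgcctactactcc

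The Egr2 window held a CArG box whose last base lay 63 bases before the start, and a TGACGT match on the opposite strand, read here as ACGTCA, 51 bases before it. A CArG box was found in 1.47% of 32851 promoter windows of this length; 4 of the 5 Egr2 starts in the table had one, but 3 of these windows overlap and hold the same box. Fos held TGACGT 61 bases before its start, a motif in 6.47% of windows, and no CArG box within its window. Bases farther upstream were not searched, so a window without a CArG box cannot show that its gene lacks an SRF site. Jun and Klf6 each held TGACATCA, 38 and 112 bases before the start, a motif in 2.93% of windows. Fosb held GCGGGGGCG 42 bases before its start, a form of a motif in 4.7% of windows, and the Junb and Jund windows held none of the motifs searched. TGACGTCA and TGANTCA, in 1.55% and 6.75% of windows, were in none of the members' windows. A match describes these letters only, and Jun, which fell, and Klf6, which rose, shared the same motif.

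The EGR genes were raised by rapamycin in cells with intact BE and not detectably so in cells with seBE. Egr1, the most studied member and a rapid responder to ERK signalling, had 54.3, 35.0 and 41.5 CPM in seBE under rapamycin, against 41.4, 35.1 and 43.4 CPM under vehicle. In intact BE it had 121, 84.5 and 84.3 CPM under rapamycin, against 38.8, 36.3 and 34.3 CPM under vehicle. The catalytic mutant had 48.9, 45.6 and 53.9 CPM, and nCas9 had 49.7, 46.8 and 47.2 CPM. The lowest intact BE library under rapamycin was thus above the highest of the other 15 libraries, and the seBE groups overlapped; the intact BE groups of 22.3% of all genes were likewise apart. The rapamycin effect on Egr1 in intact BE was a log2 fold change of 1.41 ± 0.134 (SE), or 2.65-fold, with an adjusted p of 5.74e-08 in edgeR's quasi-likelihood test.

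Egr3, known from muscle spindle and lymphocyte development, had 3.85, 3.49 and 2.13 CPM in seBE under rapamycin, against 3.83, 2.37 and 3.01 CPM under vehicle. The intact BE libraries had 18.8, 9.73 and 8.19 CPM under rapamycin, against 2.55, 1.82 and 1.88 CPM under vehicle. The catalytic mutant had 2.67, 5.015 and 3.14 CPM, and nCas9 had 3.24, 3.78 and 3.47 CPM. The intact BE libraries under rapamycin again did not overlap with any other library, and replicate 1 stood above replicates 2 and 3. The log2 fold change in intact BE was 2.55 ± 0.328, a 5.86-fold rise (adjusted p = 4.00e-06), and 2.10 without replicate 1 of the rapamycin group (edgeR adjusted p up to 0.000325 over all alternatives).

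Egr2, also called Krox20 and known from hindbrain and Schwann cell development, had 1.49, 1.97 and 0.489 CPM in seBE under rapamycin, against 0.547, 1.36 and 1.21 CPM under vehicle. With intact BE, its levels were 3.60, 4.43 and 2.97 CPM under rapamycin, against 0.851, 1.28 and 0.964 CPM under vehicle. The catalytic mutant had 1.52, 1.32 and 1.07 CPM, and nCas9 had 1.19, 1.79 and 2.25 CPM. The intact BE libraries under rapamycin were again the 3 highest, on few reads. Egr2 had a log2 fold change of 1.83 ± 0.488 in intact BE (edgeR adjusted p = 0.0264). That call ended without replicate 1 or 2 of intact BE under rapamycin (adjusted p = 0.0867 and 0.109) or without replicate 1, 2 or 3 under vehicle (0.119, 0.0817 and 0.139).

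None of the 5 AP-1 genes was called higher under rapamycin by edgeR, and Jun fell in intact BE. Jun, which forms AP-1 both alone and with FOS proteins and is a target of JNK, had 4.71, 3.26 and 2.89 CPM in seBE under rapamycin, against 3.97, 4.80 and 3.01 CPM under vehicle. In intact BE it had 4.30, 3.57 and 2.15 CPM under rapamycin, against 6.24, 6.21 and 8.89 CPM under vehicle. The catalytic mutant had 4.91, 5.38 and 3.88 CPM, and nCas9 had 6.53, 5.70 and 3.52 CPM. Intact BE fell under rapamycin with no overlap between its groups, while its vehicle libraries were among the 4 highest of the 18. The log2 fold change was -1.09 ± 0.301, to 0.47 of the vehicle level (edgeR adjusted p = 0.0329). The call ended without replicate 2 or 3 of intact BE under rapamycin (adjusted p = 0.0687 and 0.183) and without replicate 2 or 3 under vehicle (0.0705 and 0.241).

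Fos, the partner of JUN proteins whose transcription SRF and CREB control, had 7.12, 9.32 and 6.98 CPM in seBE under rapamycin, against 8.82, 5.63 and 6.94 CPM under vehicle. The intact BE libraries had 5.79, 10.3 and 10.97 CPM under rapamycin, against 6.97, 8.84 and 8.09 CPM under vehicle. Over the catalytic mutant and nCas9 it ran from 7.13 to 9.82 CPM. All groups overlapped, and the rapamycin group of intact BE held both the highest library and the second lowest. The log2 fold change in intact BE was 0.18 ± 0.223 (edgeR adjusted p = 0.813). Fosb, a close relative of Fos, averaged 1.03 ± 0.355 CPM in intact BE under rapamycin and 0.994 ± 0.248 CPM under vehicle (SD, n = 3 each). Its log2 fold change of 0.05 ± 0.711 leaves a wide range of effects undetectable at this depth.

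Junb, which can restrain JUN and is known as a brake on myeloid growth, had 55.8, 37.5 and 33.4 CPM in seBE under rapamycin, against 45.4, 46.0 and 44.9 CPM under vehicle. With intact BE, its levels were 44.8, 55.6 and 48.7 CPM under rapamycin, against 30.96, 47.1 and 51.4 CPM under vehicle. Both pairs overlapped, with a log2 fold change of -0.11 ± 0.157 in seBE and 0.20 ± 0.157 in intact BE (adjusted p = 0.999 and 0.639). Jund, the JUN protein that resting cells keep at a steady level, averaged 31.1 ± 0.212 CPM in intact BE under rapamycin and 27.0 ± 2.76 CPM under vehicle (SD, n = 3 each). These Jund libraries did not overlap, and the log2 fold change of 0.21 ± 0.139 was not called (edgeR adjusted p = 0.552).

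Of the other members, Klf6 rose with the EGR genes and Ier2 did not pass the test. Klf6, a Krüppel-like zinc-finger factor, had 12.2, 12.1 and 15.1 CPM in seBE under rapamycin, against 11.6, 11.5 and 11.9 CPM under vehicle. In intact BE it had 19.6, 19.7 and 18.1 CPM under rapamycin, against 12.4, 12.3 and 10.4 CPM under vehicle. Over the catalytic mutant and nCas9 it ran from 8.03 to 13.8 CPM. Intact BE under rapamycin was above all other libraries, and neither pair overlapped (8.06% of all genes did not overlap between the seBE groups). The log2 fold change was 0.71 ± 0.166 in intact BE (edgeR adjusted p = 0.00950) and 0.17 ± 0.167 in seBE (0.999). The call in intact BE ended without its rapamycin replicate 1 (adjusted p = 0.0522) or its vehicle replicate 3 (0.0989).

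Ier2, a nuclear protein of the immediate-early response, had 109, 77.0 and 79.8 CPM in seBE under rapamycin, against 99.1, 107 and 94.5 CPM under vehicle. The intact BE libraries had 96.9, 88.6 and 86.1 CPM under rapamycin, against 72.6, 71.9 and 89.3 CPM under vehicle. Both pairs overlapped. The log2 fold change was -0.18 ± 0.102 in seBE and 0.22 ± 0.102 in intact BE, with edgeR adjusted p of 0.999 and 0.323.

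In all, 5 of the 10 genes were called under rapamycin in intact BE, 4 higher and 1 lower, where 3.32% of all genes tested were called (1.98% higher and 1.34% lower). The 497 genes called became 214 without intact BE rapamycin replicate 1 and 223 and 224 without vehicle replicates 2 and 3. The 2 groups did not overlap for 6 of the 10, the 5 called genes and Jund, against 22.3% of all genes tested. The 3 EGR genes had a median log2 fold change of 1.83 and were all called higher. The 5 AP-1 genes had a median of 0.18, with Jun called lower and none called higher. The median over all genes tested was -0.0036. In seBE, 0 of the 10 were called, and 0% of all genes: edgeR called 0 of 14985, with 493 (3.29%) at an unadjusted p under 0.05, and DESeq2 called 1, which was no member. Without seBE rapamycin replicate 1, edgeR called 1 gene and the number at an unadjusted p under 0.05 was 1552. The medians in seBE were 0.13 for EGR and -0.11 for AP-1 genes, against 0.0011 over all genes.

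**Figure D2:**
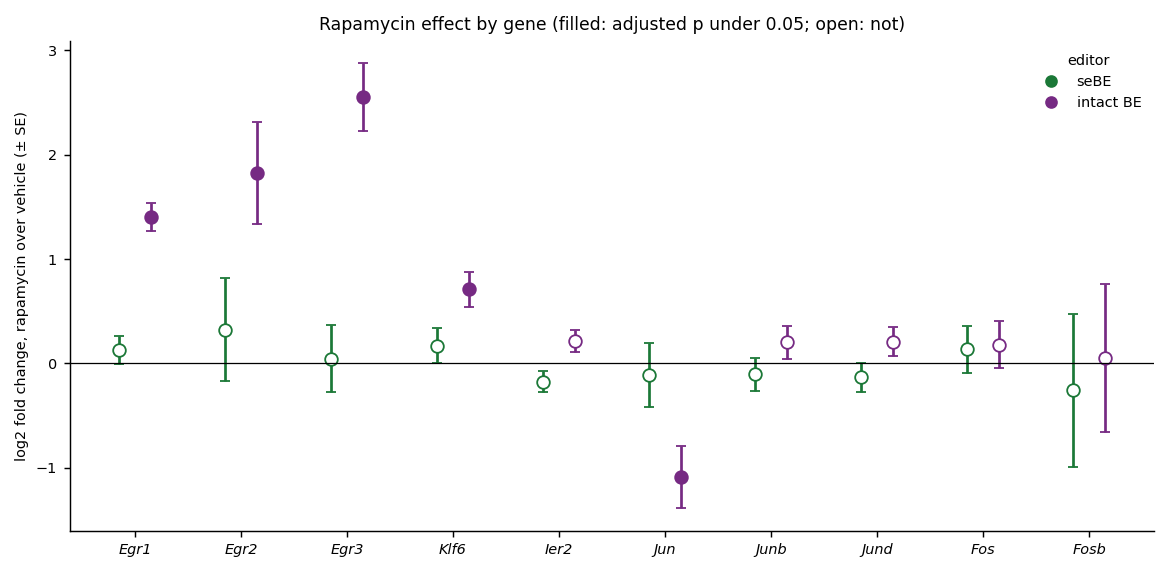
Log2 fold change of rapamycin over vehicle for each gene in cells with seBE and with intact BE (point, with its SE from the edgeR fit); filled points have an adjusted p under 0.05. Egr1, Egr2, Egr3 and Klf6 are filled above 0 and Jun below 0 in intact BE, and all 10 points of seBE are open.

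The difference between the drug effects was tested directly, as the rapamycin effect in seBE minus that in intact BE. It was called for 2 of the 10 genes, both lower, against 0.187% of all genes (0.113% lower); the 28 genes called became 11 to 56 without single libraries. For Egr1 the effect was 0.13 ± 0.134 in seBE and 1.41 ± 0.134 in intact BE, a difference of -1.28 ± 0.188 (edgeR adjusted p = 0.00176). For Egr3 the effect was 0.04 ± 0.322 in seBE and 2.55 ± 0.328 in intact BE, a difference of -2.51 ± 0.457 (adjusted p = 0.00564). Without replicate 1 of intact BE under rapamycin, the difference for Egr3 was -2.05, with an adjusted p of 0.0841. The differences for Egr2 (-1.50 ± 0.691, adjusted p = 0.650), Klf6 (-0.54 ± 0.236, 0.614) and Jun (0.98 ± 0.427, 0.614) did not pass. For Fos, Fosb, Junb, Jund and Ier2 the differences lay between -0.39 and -0.04, with adjusted p of at least 0.448.

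Set against intact BE under the same rapamycin, seBE was lower in 3 of the 10 genes, where 4.69% of all genes were called and 2.66% were called lower. The 703 genes called became 256, 353 and 277 without intact BE rapamycin replicate 1 or 3 or seBE rapamycin replicate 2, and 1114 without seBE rapamycin replicate 3. Egr1 was lower by a log2 fold change of -1.15 ± 0.131 (edgeR adjusted p = 1.63e-06) and Egr3 by -1.96 ± 0.312 (0.000172). Klf6 was lower by -0.54 ± 0.163 (0.0461), a call that ended in 15 of 27 alternative fits. Egr2 had a log2 fold change of -1.47 ± 0.473 with no overlap, which 19.6% of all genes shared (adjusted p = 0.0651, and 0.0440 with the replicate number as a block). The AP-1 members lay between -0.72 and 0.11, with none called. Junb, at -0.23 ± 0.156 (adjusted p = 0.470), was called lower in seBE with the length and GC trend removed (-0.43, adjusted p = 0.0128), with that trend and the block (0.00533) and without seBE rapamycin replicate 1 (-0.48, 0.0417). This comparison shares its intact BE libraries with the rapamycin effect in intact BE, so the results are not independent of each other.

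EGR and AP-1 members were also set side by side within each library, as the mean log2 CPM of the 3 EGR genes minus that of the 5 AP-1 genes. This difference averaged -0.38 ± 0.143 in seBE under rapamycin and -0.66 ± 0.234 under vehicle (SD, n = 3 each). In intact BE it averaged 0.88 ± 0.388 under rapamycin and -1.06 ± 0.307 under vehicle, the highest and the lowest of the 6 groups. It was -0.52 ± 0.126 in the catalytic mutant and -0.35 ± 0.243 in nCas9. The 3 intact BE libraries under rapamycin, at 1.30, 0.81 and 0.53, were the only ones of the 18 above 0. The EGR part of the difference averaged 4.0 ± 0.331 under rapamycin and 2.16 ± 0.0823 under vehicle in intact BE. The AP-1 part averaged 3.12 ± 0.0594 under rapamycin and 3.22 ± 0.240 under vehicle.

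**Figure D3:**
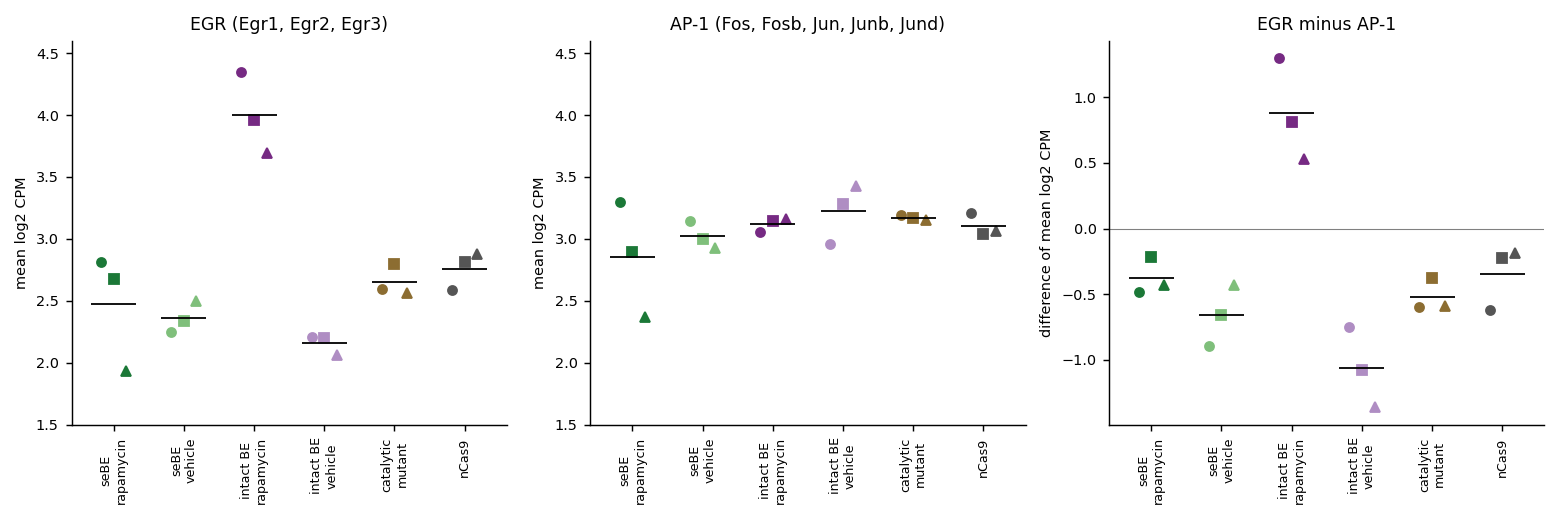
Mean log2 CPM of the 3 EGR genes, of the 5 AP-1 genes, and the difference between these means, for the 18 libraries (symbols are replicates 1, 2 and 3, the line is the group mean). The intact BE libraries under rapamycin stand alone above 0 in the right panel, through higher EGR means with AP-1 means in the range of the other groups.

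The EGR genes also varied together across libraries, given as a description over 18 libraries that share these group differences and their library depth. The 3 EGR pairs had Pearson correlations of log2 CPM between 0.71 and 0.92, with a median of 0.74. The 10 AP-1 pairs had a median of 0.15 (-0.21 to 0.65), and the 15 pairs of an EGR with an AP-1 gene a median of 0.22 (-0.38 to 0.44). After the group means were taken out, the median over EGR pairs was 0.14 (-0.18 to 0.49), and that over AP-1 pairs 0.26 (-0.35 to 0.62).

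Genes known to act with the EGR and AP-1 factors, in lists set by pathway, were read for the same comparisons. Nab2, a corepressor that binds EGR proteins and is itself an EGR target, had 39.2, 31.5 and 36.9 CPM in seBE under rapamycin, against 39.4, 37.8 and 37.9 CPM under vehicle. With intact BE, its levels were 51.4, 56.6 and 44.1 CPM under rapamycin, against 31.6, 33.7 and 33.3 CPM under vehicle. Nab2 thus stood above its vehicle range in all 3 intact BE libraries under rapamycin. Its log2 fold change was -0.10 ± 0.105 in seBE and 0.62 ± 0.105 in intact BE (edgeR adjusted p = 0.999 and 0.000206). The difference between these effects was -0.72 ± 0.149 (adjusted p = 0.0200), a call that ended when any 1 of 7 libraries was left out (seBE rapamycin replicate 2 or vehicle replicate 1, intact BE rapamycin replicate 1 or 2, or vehicle replicate 1, 2 or 3; adjusted p = 0.0648 to 0.113). Its relative Nab1 had a log2 fold change of 0.01 in intact BE. Thus 1 of 2 tested EGR partners was called for rapamycin in intact BE, where 3.32% of all genes were called.

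The ERK feedback list holds genes that the cascade switches on, some of which dampen it. Of 12 tested, 2 rose in intact BE under rapamycin, where 1.98% of all genes were called higher. Dusp5, a nuclear ERK phosphatase, averaged 35.7 ± 4.36 CPM under rapamycin and 22.2 ± 0.974 CPM under vehicle (SD, n = 3 each; log2 fold change 0.69 ± 0.129, edgeR adjusted p = 0.000935). Dusp6, its cytoplasmic counterpart, averaged 121 ± 15.1 CPM under rapamycin and 93.9 ± 3.66 CPM under vehicle (0.36 ± 0.0849, adjusted p = 0.00884). The Dusp6 call ended without intact BE rapamycin replicate 1 (adjusted p = 0.194) or without vehicle replicate 2 or 3 (0.0651 and 0.0671). Among SRF, its cofactors and CREB-type factors, 1 of 9 rose: Elk4, a ternary complex factor, averaged 73.4 ± 4.82 CPM under rapamycin and 55.4 ± 3.80 CPM under vehicle (0.41 ± 0.0928, adjusted p = 0.00725). The Elk4 call ended without rapamycin replicate 1 (adjusted p = 0.0851) or vehicle replicate 3 (0.0847). For Dusp5, Dusp6 and Elk4, the difference between the drug effects in seBE and intact BE was not called (edgeR adjusted p = 0.268, 0.714 and 0.161).

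Genes of the RAS-ERK cascade itself (0 of 15), of the JNK and p38 cascade (0 of 11) and of further AP-1 relatives (0 of 11) were not called in this comparison, by edgeR. Of 26 other immediate-early genes, 3 were called, all higher (1.98% of all genes): Trib1, Myc and Btg1. Trib1, a pseudokinase, averaged 23.5 ± 1.72 CPM under rapamycin and 16.2 ± 1.38 CPM under vehicle (log2 fold change 0.54 ± 0.133, edgeR adjusted p = 0.0152). Myc, the growth-promoting transcription factor, averaged 227 ± 4.81 CPM under rapamycin and 190 ± 8.53 CPM under vehicle (0.26 ± 0.0652, adjusted p = 0.0174). The Trib1 and Myc calls hung on single libraries: that of Trib1 ended without rapamycin replicate 1 or 2 or vehicle replicate 1 or 3 (adjusted p up to 0.103), and that of Myc when any 1 of its 6 libraries was left out (up to 0.119). The list medians were 0.02 for RAS-ERK, 0.02 for JNK and p38, 0.0042 for AP-1 relatives, -0.05 for SRF and related factors, 0.13 for ERK feedback and 0.17 for other immediate-early genes, against -0.0036 over all genes. In seBE, edgeR called 0 members of any of these lists under rapamycin, as it called 0 of all genes.

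**Figure D4:**
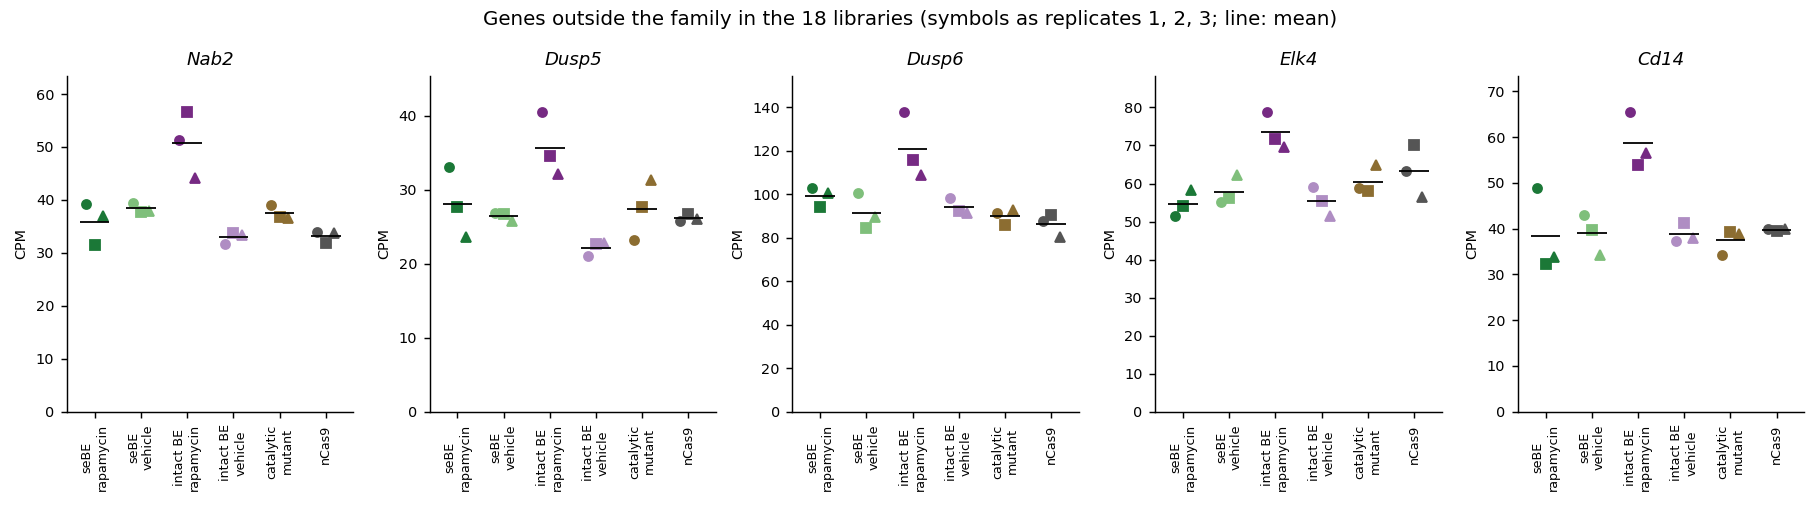
Level in CPM of the EGR corepressor Nab2, the ERK phosphatases Dusp5 and Dusp6, the ternary complex factor Elk4 and the monocyte marker Cd14 in the 18 libraries (symbols are replicates 1, 2 and 3, the line is the group mean). In each panel the mean of intact BE under rapamycin is the highest of the 6 groups, and single libraries of other groups reach its range for Dusp5 and Elk4.

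The comparison of seBE with intact BE under rapamycin rests on the same intact BE libraries. Nab2 was lower in seBE (log2 fold change -0.50 ± 0.104, edgeR adjusted p = 0.00320, and 0.0510 without seBE rapamycin replicate 2), as was Elk4 (-0.43 ± 0.0922, adjusted p = 0.00452, and 0.0524 without intact BE rapamycin replicate 1). Dusp6 was also lower (-0.29 ± 0.0843, adjusted p = 0.0415), a call that ended in 11 of 27 alternatives. By list, the calls were 1 of 2 EGR partners, 1 of 9 SRF and related factors, 1 of 12 ERK feedback genes, 1 of 11 JNK and p38 genes (Map2k4), 1 of 11 AP-1 relatives (Maff), 2 of 26 other immediate-early genes (Btg1 and Klf10) and 0 of 15 RAS-ERK genes, all lower in seBE, where 2.66% of all genes were called lower. The calls of Map2k4, Maff, Btg1 and Klf10 each ended in at least 1 alternative.

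Of 4 markers of monocytes and macrophages, Cd14 was called higher in intact BE under rapamycin and the others were not called. The list of Csf1r, Adgre1, Cd14 and Cd68, none of them at 0, summed to 181 to 190 CPM in seBE under rapamycin, against 170 to 180 CPM under vehicle. In intact BE the sum was 225 CPM in all 3 libraries under rapamycin, against 183 to 192 CPM under vehicle. Cd14, a lipopolysaccharide co-receptor, rose in intact BE (log2 fold change 0.60 ± 0.121, edgeR adjusted p = 0.00242). Csf1r, Adgre1 and Cd68 had log2 fold changes of 0.15, 0.23 and -0.05 (adjusted p = 0.737, 0.145 and 0.895). Of the 7 RN2 markers, the myeloid integrin Itgam rose as well (0.58 ± 0.0795, adjusted p = 1.05e-05). So did the progenitor receptor Kit (0.31 ± 0.0778, adjusted p = 0.0176, and 0.0809 to 0.129 without intact BE rapamycin replicate 1 or 3 or vehicle replicate 2 or 3). Ptprc, Spi1, Myb and Meis1, at 0.05, 0.09, 0.14 and 0.04, and Hoxa9, at -0.17, were not called (edgeR adjusted p of at least 0.192). In this comparison 1.98% of all genes were called higher. In seBE, Itgam and Cd14 had log2 fold changes of -0.0013 and -0.02 (adjusted p = 0.999). The difference between the drug effects was not called for Cd14 (-0.62 ± 0.172, edgeR adjusted p = 0.203). For Itgam it was called (-0.58 ± 0.112, adjusted p = 0.0127), a call lost without some single libraries. In bulk RNA, more cells of a type and more RNA per cell cannot be told apart, and the part of these markers in the EGR result was not tested. Depth also moved with rapamycin, and with all libraries thinned to equal depth the 14 calls made among the members over all comparisons remained.

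Without rapamycin, 0 to 2 of the 10 genes were called in each comparison between constructs. Set against nCas9, intact BE under vehicle was lower in Egr1 alone among the 10 (log2 fold change -0.39 ± 0.135, edgeR adjusted p = 0.0329), where 23% of all genes were called and 9.83% were called lower. Egr2 and Egr3 had log2 fold changes of -0.76 ± 0.493 and -0.74 ± 0.333 (adjusted p = 0.295 and 0.110). The Egr1 call ended when any 1 of its 6 libraries was left out (adjusted p = 0.0577 to 0.133) and after a trend with transcript length and GC content was removed (-0.31, adjusted p = 0.157). The share of counts from mitochondrial genes also differed, at 1.78 to 2.02% in intact BE under vehicle, against 3.73 to 5.47% in the catalytic mutant and 4.43 to 5.54% in nCas9, and its part in these results was not tested. Set against the catalytic mutant, intact BE under vehicle was lower in Egr1 (-0.44 ± 0.135, adjusted p = 0.0194) and Ier2 (-0.51 ± 0.103, adjusted p = 0.000584), where 21% of all genes were called and 9.33% lower (3141 genes in all, and 1662 and 2089 without intact BE vehicle replicate 1 or catalytic mutant replicate 2). Neither held after removal of that trend (Egr1 -0.19, adjusted p = 0.524; Ier2 -0.09, adjusted p = 0.617). The Egr1 call also ended without intact BE vehicle replicate 2 or 3 or catalytic mutant replicate 3 (adjusted p = 0.0552, 0.0777 and 0.0776).

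The catalytic mutant differed from nCas9 in 0 of the 10 genes by edgeR, where 4.3% of all genes were called; 2 members, Junb and Ier2, had an unadjusted p under 0.05 (18.9% of all genes), and DESeq2 called 1. The 644 genes called became 122 without nCas9 replicate 2 and 380 to 408 without nCas9 replicate 1 or catalytic mutant replicate 1 or 3. Junb had 51.5, 49.3 and 57.1 CPM in the catalytic mutant, against 36.5, 37.2 and 37.6 CPM in nCas9. The groups did not overlap, as was so for 21.3% of all genes, and the log2 fold change was 0.50 ± 0.159 (edgeR adjusted p = 0.0714, DESeq2 adjusted p = 0.0253). Ier2 had 104, 114 and 114 CPM in the catalytic mutant, against 98.9, 96.2 and 86.1 CPM in nCas9 (0.24 ± 0.102, adjusted p = 0.170).

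Under vehicle, seBE differed from nCas9 in 0 of the 10 genes by edgeR, where 4.56% of all genes were called; 0 members had an unadjusted p under 0.05 (18.3% of all genes), and DESeq2 called 0. The 684 genes called became 122 and 217 without seBE vehicle replicate 1 or 3, and 328 and 165 without nCas9 replicate 1 or 2. Set against intact BE under vehicle, seBE was higher in Ier2 (log2 fold change 0.36 ± 0.102, edgeR adjusted p = 0.0398), where 3.99% of all genes were called and 1.68% higher. The 598 genes called became 308 and 52 without seBE vehicle replicate 1 or 2, and 54, 193 and 374 without intact BE vehicle replicates 1, 2 and 3, and 948 without seBE rapamycin replicate 3. The Ier2 call ended after removal of the length and GC trend (0.09, adjusted p = 0.728) and without seBE vehicle replicate 1 or 2 or intact BE vehicle replicate 1 or 2 (adjusted p = 0.0748 to 0.303). Jun had 3.97, 4.80 and 3.01 CPM in seBE under vehicle, against 6.24, 6.21 and 8.89 CPM in intact BE under vehicle (-0.86 ± 0.301, adjusted p = 0.0911). With the replicate number as a block, Jun was called lower in seBE (adjusted p = 0.0407), as it was with the block and the length and GC trend removed (0.0215) and with only the compared samples (0.00913). These Jun libraries did not overlap, as was so for 29.4% of all genes, and the same intact BE libraries are the base of the Jun fall under rapamycin.

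Genes of the RAS-ERK cascade, which acts upstream of the members, were read for the constructs without rapamycin. In intact BE under vehicle, 9 of 15 were called against nCas9, 7 higher and 2 lower, where 23% of all genes were called. Against the catalytic mutant, 9 of 15 were called, 5 higher and 4 lower, where 21% of all genes were. The catalytic mutant and seBE under vehicle had 1 and 2 of 15 called against nCas9, where 4.3% and 4.56% of all genes were. Nras, the mutated driver of this line, averaged 578 ± 39.3 CPM in intact BE under vehicle and 926 ± 48.0 CPM in nCas9 (log2 fold change -0.68 ± 0.0823, edgeR adjusted p = 1.06e-06). Of 12 genes of the ERK feedback list tested in intact BE under vehicle against nCas9, 4 were called. Spred2 (0.72 ± 0.101, adjusted p = 5.56e-06) and Etv5 (0.58 ± 0.10, adjusted p = 6.25e-05) were higher. Spred3 (-0.77 ± 0.182, adjusted p = 0.00210) and Etv4 (-0.37 ± 0.0967, adjusted p = 0.00479) were lower, and the Etv4 call ended without nCas9 replicate 2 (adjusted p = 0.0643) and its value was -0.23 with the length and GC trend removed.

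By pattern over the 18 libraries, 9710 genes with a mean of at least 5 CPM were ranked by Pearson correlation of log2 CPM with Egr1 and with Fos, as a description. Among the closest to Egr1 were Pink1 (0.88), Smim14 (0.86), Cd14 (0.86) and Tec (0.85). Each of these 4 had its highest group mean in intact BE under rapamycin, and Spearman's rho was 0.60 to 0.67. Tec is a tyrosine kinase of blood cells. It averaged 78.2 ± 3.11 CPM in intact BE under rapamycin and 48.0 ± 0.756 CPM under vehicle (SD, n = 3 each). Its log2 fold change was 0.71 ± 0.0886. These genes were picked for likeness to Egr1, which was highest in the same rapamycin libraries, so their rise is no independent result. Closest to Fos were Sec22a (0.72), Tcp11l1 (0.69), Fcgr4 (0.66), Mrpl10 (0.64) and the pseudogene Rpsa-ps1 (0.64), whose reads may be split with its parent gene. These 5 had edgeR adjusted p of at least 0.538 for rapamycin in intact BE, and the Fos value was 0.813. They were picked for likeness to Fos over the same libraries, so their lack of a call is no independent result either.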

How the data were processed

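The 18 libraries are directional, polyA-selected mRNA libraries of sorted RN2 cells. The deposited table holds raw counts per gene. Per the submitters' processing notes, the authors used fastp 1.0.1, STAR 2.7.1a, SAMtools 1.9, featureCounts from Subread 2.0.3 and DESeq2 with mouse build GRCm39; the sources used here do not give the annotation release, the strand setting or the handling of multi-mapping reads. Columns were matched to samples by the deposited list of library names, and 52073 of 56748 gene IDs to symbols by a GENCODE M21 annotation.

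Genes were filtered with edgeR's filterByExpr, leaving 14985, and fitted in 1 model of 6 group means and robust quasi-likelihood F tests on TMM-scaled libraries (R 4.3.3, edgeR 4.0.16). Within each of 9 comparisons, p-values were adjusted by the Benjamini-Hochberg method across every tested gene, with a threshold of 0.05. The SE is the absolute log2 fold change over the root of F. Levels are CPM on TMM-adjusted library sizes, and log2 CPM used a prior count of 2. The biological coefficient of variation was 13.3% (common dispersion 0.0176). The procedure was tested on simulated counts with known changes. The members, gene lists and tests were chosen with earlier results of these data known. All 10 members are named, with up to 2 genes of each pathway list by smallest adjusted p and the 5 genes most correlated with Egr1 and with Fos, except that some of the genes this rule names are not reported here. Btg1, Map2k4, Maff, Klf10, Spred3 and Etv4 are named as the genes of a small count, after their values were seen.

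Alternatives were DESeq2 1.42.0, library totals without TMM, no filter, 1 CPM in 3 libraries, only the compared samples, a replicate block, removal of a trend with transcript length and GC content (97.4% of tested genes had a value), that trend with the block, and leaving out each library. Replicate numbers were not taken as pairs because the labels do not say that they mark a shared culture or day. Deviations from group means had a median correlation of 0.11 between same-numbered libraries, with 25 of 45 pairs over 0.1. Between libraries of different numbers and groups the median was -0.049. No 2 libraries of a group agreed within sampling noise. Motifs were counted over 32851 RefSeq promoter windows of 250 bases.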

Additional observations from a re-analysis of the deposited data

Results flagged for a closer look

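For 5 of the genes named, the effect of rapamycin in seBE differed from that in intact BE by a test of the difference itself (edgeR's quasi-likelihood test, adjusted over all genes tested). The difference, seBE effect minus intact BE effect on the log2 scale, was -1.28 ± 0.188 for Egr1 (adjusted p = 0.00176) and -2.51 ± 0.457 for Egr3 (adjusted p = 0.00564). It was -0.58 ± 0.112 for Itgam (adjusted p = 0.0127), -0.62 ± 0.126 for Tec (adjusted p = 0.0184) and -0.72 ± 0.149 for Nab2 (adjusted p = 0.0200). Egr1 held its call in all 27 alternatives. Egr3 lost it in 1, without intact BE rapamycin replicate 1 (adjusted p = 0.0841). Itgam lost its call without that library or without intact BE vehicle replicate 3 (adjusted p = 0.0928 and 0.0569). Tec lost it without seBE rapamycin replicate 3, seBE vehicle replicate 2, intact BE rapamycin replicate 1 or intact BE vehicle replicate 2 or 3 (adjusted p = 0.0618 to 0.106), and Nab2 in 7 such fits (up to 0.113). The 5 were picked by this test from the genes named, and it called 0.187% of all genes. Tec was named for its correlation with Egr1 over the same libraries, so its call is not independent of the Egr1 result. As a description, all 3 intact BE libraries under rapamycin lay above all 3 under vehicle for each of the 5. The intact BE groups of 22.3% of all genes did not overlap either. The seBE groups overlapped for each of the 5. The cause was not tested.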

How the results depend on the processing

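Of 14 calls among the members over 9 comparisons, none changed sign under any of 27 alternatives. DESeq2, the filter of 1 CPM in 3 libraries, the replicate block and thinning to equal depth (an alternative chosen after seeing the data) kept all 14. Library totals without TMM, no filter and a fit of only the compared samples kept 13. Removal of the length and GC trend kept 9, and 11 with the block. The Egr1 and Egr3 calls for rapamycin in intact BE held in all 27, at 1.21 to 1.49 and 2.10 to 2.77. The labels do not say that a replicate number marks a shared culture or day, so the numbers were not used as pairs; 14 of 18 libraries correlated best with their own number, a hint from the data. With the replicate block, 2 members (Ier2 and Jun) were called for seBE against intact BE under vehicle in place of 1, as they were with only the compared samples; with the trend removed, 0 were.

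For intact BE against nCas9, 2 members were called in place of 1 with no filter, with the 1 CPM filter, with only the compared samples, with trend and block, and with thinning, and 0 to 2 without single libraries. For the catalytic mutant against nCas9, 1 was called in place of 0 with DESeq2, no filter or only the compared samples, and 0 to 1 without single libraries. For intact BE against the catalytic mutant the main count of 2 became 0 with the trend removed and 1 with trend and block, and 1 to 3 without single libraries. The 1 called with trend and block was neither Egr1 nor Ier2 (edgeR adjusted p = 0.250 and 0.520). For seBE against intact BE under vehicle the count was 0 to 1 without single libraries. For rapamycin in intact BE, 2 to 5 of the main 5 were called without single libraries. For seBE against intact BE under rapamycin, 6 were called in place of 3 with trend and block, and 2 to 3 without single libraries. For the difference between drug effects it was 1 to 3, against 2.

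Changes of sign were among values not called. Ier2 in intact BE against nCas9 was 0.016 with the trend removed and 0.013 with trend and block, against -0.26. Thinned, Fosb under rapamycin in intact BE was -0.12 and Jun in seBE against intact BE under rapamycin -0.15. Without single libraries, the rapamycin effect in seBE ran from -0.062 to 0.26 for Egr1, -0.093 to 0.72 for Egr2, -0.12 to 0.26 for Egr3, -0.013 to 0.31 for Fos, -0.94 to 0.26 for Fosb, -0.35 to 0.061 for Jun and -0.36 to 0.038 for Junb. For Fosb in intact BE it ran from -0.24 to 0.25. In seBE against intact BE under rapamycin it ran from -0.12 to 0.34 for Jun, -0.33 to 0.041 for Jund and -0.20 to 0.062 for Ier2. The difference between drug effects ran from -0.28 to 0.13 for Fos and -0.98 to 0.21 for Fosb. The causes were not tested. Fosb and Egr2, at 2 to 29 and 8 to 87 reads per library, are limited by depth.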
